A study of Homo sapiens with 9 samples.

Results

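The genes described here are 46 regulators of pre-mRNA splicing, listed by symbol: 13 SR and SR-like proteins, 6 kinases that phosphorylate SR proteins, 15 hnRNP proteins, 4 RNA-binding motif proteins, 6 factors that recognise splice sites and 2 proteins of nuclear speckles. They are 46 of the 56779 genes with a transcript in the deposited tables. For each gene the estimated reads were summed by the transcript type of the GENCODE 29 annotation (protein coding, retained intron, nonsense-mediated decay), and the retained-intron share is the percentage of the gene's reads on transcripts of the retained-intron type.

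The study used H1975, an established cell line of human EGFR-mutant lung adenocarcinoma, carrying TRE-dCas9-KRAB, a doxycycline-inducible, catalytically dead Cas9 fused to the KRAB repressor domain. Control cells carried a non-targeting guide RNA (NTgRNA), and the other cells carried gRNA1 or gRNA2, both directed at the long noncoding RNA TRIDENT. There were 3 libraries in each of the 3 groups. Cells of all groups grew in G418 and puromycin and received doxycycline at 4 ug/ml for 72 h, so the induced repressor is common to every comparison. Total RNA was depleted of ribosomal RNA before library preparation. The labels do not say whether the libraries of a group came from separate cultures, or whether the line is 1 clone, so p-values measure the spread between these libraries, which may be technical.

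Depth ran from 16918432 to 26466536 reads per library, and the 46 genes held 0.818% to 0.877% of the matched reads. Epithelial markers were all measured, with a summed level of 1300 to 1440 TPM (a level scaled for transcript length and depth), against 1.62 to 3.09 TPM for stromal and endothelial markers and 39.8 to 50 TPM for 5 blood markers, of which HBB was at 0 in every library. TRIDDENT, the RefSeq symbol that lists TRIDENT as a synonym, was at 2.58 ± 0.287 CPM (counts scaled to library size) in control libraries, 1.91 ± 0.163 in gRNA1 and 2.44 ± 0.132 in gRNA2 libraries (SD, n = 3 each). It did not pass the threshold for either guide (edgeR quasi-likelihood test with Benjamini-Hochberg adjustment, adjusted p = 0.128 and 0.81). The groups are therefore named by their labels alone. In bulk RNA, fewer cells that carry a transcript and less of it per cell cannot be told apart.

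Splicing regulators act on one another and on their own transcripts. SR proteins bind exonic enhancers through RNA recognition motifs and recruit the spliceosome through domains rich in arginine and serine, whereas many hnRNP proteins bind silencers and oppose exon inclusion. Many of these genes hold an ultraconserved exon or a slowly spliced intron: inclusion of the exon sends the transcript to nonsense-mediated decay, and a transcript that keeps the intron is usually held in the nucleus and makes no full-length protein. Reads on a retained-intron transcript do not distinguish a polyadenylated RNA that keeps an intron from precursor RNA that has not yet been spliced there.

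The splice sites of introns kept in abundant retained-intron transcripts are shown as examples of the sequence such transcripts keep. Reads were assigned to whole transcripts, and reads on the introns themselves were not counted. Each sequence is of the transcript strand, 5′ to 3′, read from the GENCODE 29 transcript sequences (hg38), with the intron bases in capitals and the flanking exon bases in lower case. The paired introns of CLK1 and CLK4 lie on either side of 1 exon in each gene. Transcript CLK1-210 held 71.1% of the retained-intron reads of CLK1. It keeps 3 annotated introns of coding transcripts whole: chr2:200860216-200861237, chr2:200859747-200860124 (minus strand) and a longer one that overlaps both. In CLK4 the transcript CLK4-203 held 36.1% of the retained-intron reads of CLK4. It also keeps 3: chr5:178617435-178618555, chr5:178616949-178617343 (minus strand) and a stretch of 31 bases without GT and AG ends.
CLK1 intron upstream of the exon, 5′ splice site: gggGTATGA
CLK4 intron upstream of the exon, 5′ splice site: tcgGTATGA
CLK1 intron upstream of the exon, 3′ splice site: CGCCCACTTGACGTTTCCAGaag
CLK4 intron upstream of the exon, 3′ splice site: CTGCCCACTTGCCGTTCCAGaag
CLK1 intron downstream of the exon, 5′ splice site: gatGTATAG
CLK4 intron downstream of the exon, 5′ splice site: gatGTATAG
CLK1 intron downstream of the exon, 3′ splice site: GATTTATTTCTCTCTTTTAGatg
CLK4 intron downstream of the exon, 3′ splice site: TTTTTCCCTCCTCACTCTAGatg

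The introns downstream of the exon in CLK1 and CLK4 have the same 9 bases at the 5′ splice site, which match the consensus 5′ splice site (CAG at the exon end, then GTAAGT) at 4 of 9 positions. The upstream introns match it at 5 of 9 positions in both genes. The kept introns of other genes with a high share are shown for contrast: chr20:35739018-35740823 (minus strand, 1806 bases) in RBM39, chr14:69769252-69769510 (plus strand, 259 bases) in SRSF5 and chr5:179617111-179617513 (minus strand, 403 bases) in HNRNPH1.
RBM39, 5′ splice site: aagGTGAGA
RBM39, 3′ splice site: CTTCTATCAACCCTGCTTAGgat
SRSF5, 5′ splice site: cagGTTTGT
SRSF5, 3′ splice site: TTAAACCCTTTATTTGCCAGcct
HNRNPH1, 5′ splice site: tgcGTAAGT
HNRNPH1, 3′ splice site: CTTTTTTTTTCTCATTTCAGaac

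The SRSF5 intron matched the consensus at 7 of 9 positions, and those of RBM39 and HNRNPH1 at 6 of 9. Across the 96 introns of coding transcripts kept whole in retained-intron transcripts of 24 of the 46 genes (transcripts with a mean of at least 10 reads), the median length was 463.5 bases and the median GC content 36.93%. The 7018 such introns of 2693 other genes had a median length of 309 bases and a median GC content of 54.566%. The splice sites differed little in these summaries: the mean match to the 5′ consensus was 5.95 of 9 positions in the regulators and 5.92 in other genes, and a median of 72.222% of the scored bases before the 3′ site were pyrimidines in both. Overlapping annotated alternatives were counted as separate introns in both sets, so genes with many alternatives weigh more in these summaries. HNRNPH1-227 alone keeps 11 such introns. These are descriptions of the annotated introns, and no test was made.

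Of the 46 genes, 36 have a listed transcript of the retained-intron type, and their share in the controls ran from 87.6% in TRA2B to 0 in HNRNPA3. The other 10 (SRSF6, SRSF8, SRSF11, CLK2, HNRNPDL, HNRNPF, HNRNPH3, PTBP2, RBM10 and PNISR) have none, so they have no share. Over all 46 genes together, 24.05% ± 0.1207 of the reads in the controls were of the retained-intron type (SD, n = 3), against 6.039% ± 0.02449 over all other genes. A further 63.77% ± 0.06036 were on protein-coding transcripts and 7.787% ± 0.1161 on transcripts of the nonsense-mediated-decay type. A further class, processed transcripts without an annotated reading frame, held 4.395% ± 0.03426 and was the main one in 2 genes that lack a retained-intron transcript: 68.0% ± 2.95 in SRSF11, an SR-related protein, and 74.0% ± 3.48 in HNRNPH3, a relative of HNRNPH1.

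**Figure D1:**
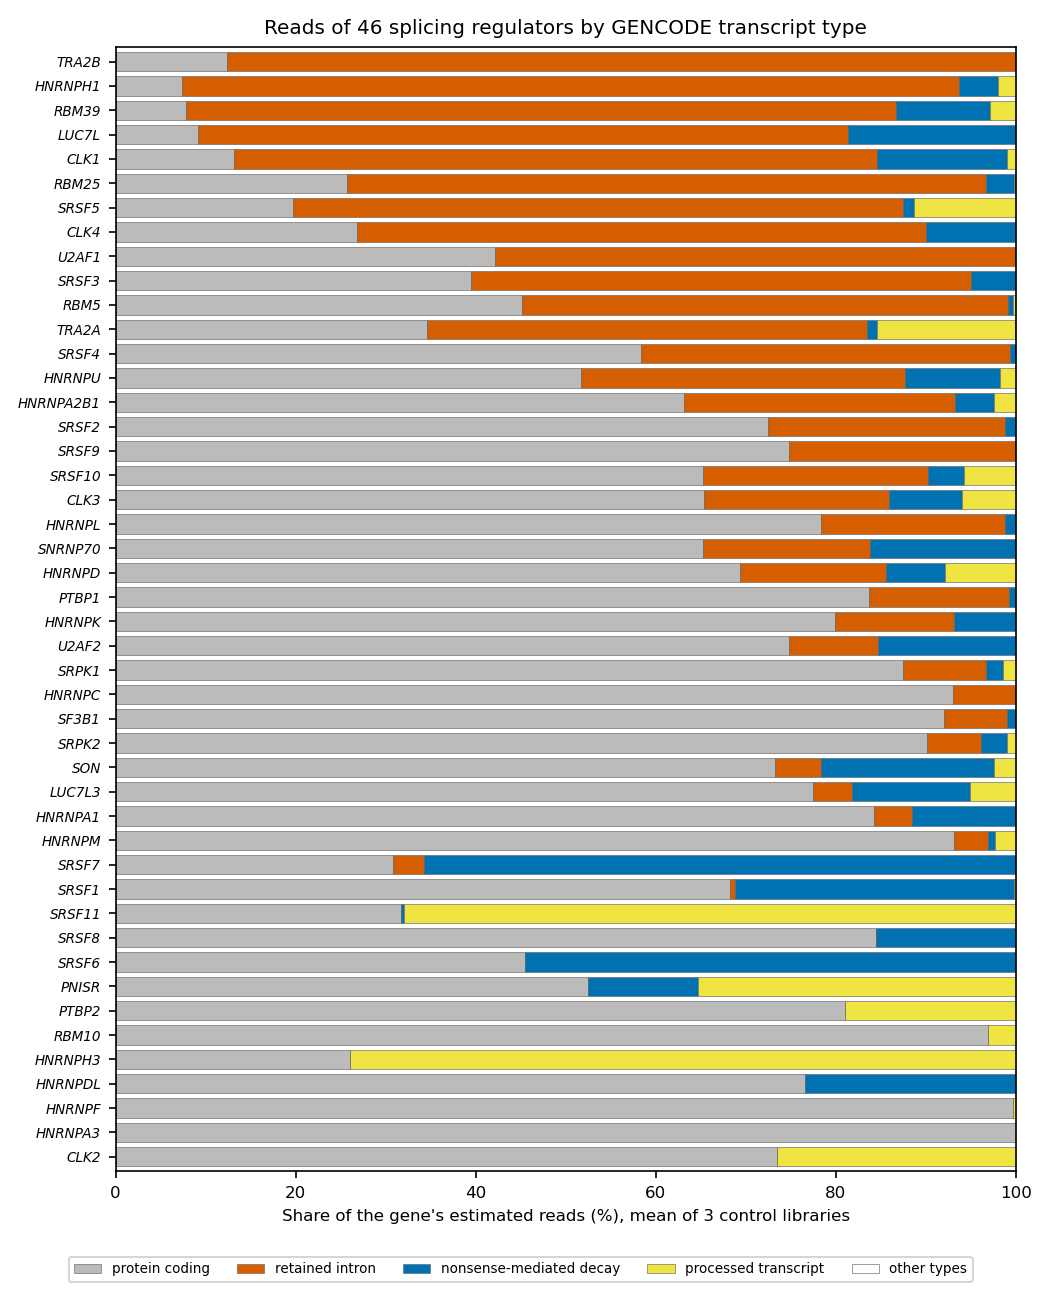
Stacked bars give, for each of the 46 genes, the percentage of its estimated reads on each transcript type, as the mean of the 3 control libraries; genes are ordered by the retained-intron share. TRA2B, HNRNPH1 and RBM39 are mostly retained intron, SRSF11 and HNRNPH3 mostly processed transcript, SRSF7 and SRSF6 mostly nonsense-mediated decay, and the genes at the bottom have no retained-intron transcript or almost no reads on one.

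Among the SR and SR-like proteins, TRA2B, a co-activator of exon inclusion, had the highest share. It was 88.6%, 87.3% and 86.9% in the controls, 87.1%, 86.9% and 83.4% with gRNA1 and 88.1%, 88.8% and 89.9% with gRNA2. The groups overlapped, with the lowest value in gRNA1 replicate 3. SRSF5, a regulator of exon inclusion and mRNA export, lay at 66.6%, 66.7% and 69.7% in the controls, 71.5%, 66.7% and 71.1% with gRNA1 and 65.0%, 66.9% and 68.3% with gRNA2, again with overlap. SRSF5-212 held 68.1% of its retained-intron reads, but only 6.4% of the 31-base words of SRSF5-212 are absent from the gene's transcripts of other types. The share of SRSF5 therefore rests largely on how the quantifier split shared sequence.

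At the other end, SRSF1, the founding SR protein, had 0.424%, 0.6% and 0.707% in the controls, 0.396%, 0.82% and 0.742% with gRNA1 and 1.28%, 1.41% and 0.479% with gRNA2. The gRNA2 libraries held both the highest values and one within the control range, on 34.7 retained-intron reads per library on average. SRSF7, an SR protein with a zinc knuckle, had 3.17%, 3.48% and 3.85% in the controls, 3.79%, 4.92% and 3.32% with gRNA1 and 3.97%, 3.55% and 4.68% with gRNA2. Its values overlapped between all groups, and 65.7% ± 3.88 of its control reads were of the nonsense-mediated-decay type instead. SRSF6 carried 54.5% ± 0.409 and SRSF1 31% ± 2.6 of their control reads on that type.

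The kinases that phosphorylate SR proteins in the nucleus, CLK1 and CLK4, both had more reads on retained-intron than on coding transcripts. The CLK1 share was 70.2%, 72.7% and 71.2% in the controls, 71.4% to 74.2% with gRNA1 and 75.7%, 74.1% and 76.3% with gRNA2. Every gRNA2 library lay above every control. CLK4 spread far more within a group, at 78.7%, 58.7% and 52.3% in the controls, 71.8%, 59.0% and 64.8% with gRNA1 and 65.1%, 68.6% and 56.8% with gRNA2, and the controls alone spanned the values of the other groups. SRPK1, the mostly cytoplasmic kinase that licenses SR proteins for nuclear import, was as unsteady at a lower level, from 3.42% to 16.7% among the controls.

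In the hnRNP family HNRNPH1, which binds runs of G, kept 85.4%, 86.3% and 87.2% of its reads on retained-intron transcripts in the controls, 86.4%, 86.3% and 83.0% with gRNA1 and 84.5%, 86.0% and 86.3% with gRNA2. The groups overlapped, and no other hnRNP gene had a control share above the 36.0% ± 1.39 of HNRNPU. HNRNPA3 was listed at 0 in 8 of the 9 libraries and at 0.0401% in gRNA2 replicate 2. Its leading retained-intron transcript, like those of SRSF2 and HNRNPC, holds no 31-base word that is absent from the gene's transcripts of other types, so reads assigned to these transcripts rest on the model of the quantifier.

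RBM39, a factor related to U2AF2, was at 79.0%, 78.3% and 79.4% in the controls, 80.5%, 79.5% and 77.3% with gRNA1 and 80.2%, 80.0% and 80.5% with gRNA2. RBM25, which binds exonic enhancers and LUC7L3, had 71.3%, 71.7% and 70.1% in the controls, 72.0%, 71.6% and 71.6% with gRNA1 and 73.6%, 73.8% and 75.2% with gRNA2. All 3 gRNA2 libraries were above all 3 controls in both genes. LUC7L, a partner of the U1 particle in the recognition of 5′ splice sites, had 76.8%, 66.6% and 73.3% in the controls, 80.1%, 70.5% and 72.7% with gRNA1 and 74.4%, 79.6% and 74.2% with gRNA2, with overlap throughout. U2AF1, the subunit that reads the last bases of the intron, was at 57.9% ± 2.83 in the controls, but 96.51% of its 31-base words occur in transcripts of other genes, so its reads could be split between copies.

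The comparison of gRNA2 with the control asks which transcripts differ when the second guide is present. In the gene totals, 8 of the 46 regulators fell and none rose (edgeR quasi-likelihood test, Benjamini-Hochberg adjustment over 19619 genes, adjusted p below 0.05), beside 4.77% of all genes that fell and 3.73% that rose. Of the 8, 6 were hnRNP genes (HNRNPL, HNRNPA2B1, HNRNPA1, HNRNPF, HNRNPK and HNRNPA3), with the SR gene SRSF3 and the speckle gene SON. At an unadjusted p below 0.05, 14 were lower and 4 higher, beside 12.2% and 11.1% of all genes. DESeq2 called 10 lower and 0 higher, a count given without its share of all genes. In 11 of the 46 every gRNA2 library lay below every control and in 1 above, beside 13.7% of all genes in each direction. The median log2 change of the 46 genes was -0.033, against 0.009 over all genes tested. Here and below, the regulators were not matched with other genes for read depth, and more reads make a change of a given size easier to call.

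HNRNPL, which binds CA-rich elements, had the lowest adjusted p. Its total was 137.1, 132.3 and 133.6 CPM in the controls, 127.5, 129.5 and 127.9 with gRNA1 and 113.3, 106.3 and 104.3 with gRNA2. The 3 gRNA2 libraries lay below the 6 others without overlap, at 0.804 times the control (95% interval 0.759 to 0.853, adjusted p = 0.000294, edgeR quasi-likelihood test). SON, a scaffold of nuclear speckles that aids splicing at weak sites, had 358.5, 362.3 and 356.0 CPM in the controls, 333.8, 339.7 and 334.0 with gRNA1 and 311.9, 311.0 and 321.2 with gRNA2. The groups stood in that order without overlap, and gRNA2 was at 0.876 times the control (0.837 to 0.917, adjusted p = 0.00192, edgeR). Its gRNA1 value of 0.936 times the control (0.894 to 0.979) did not pass the threshold (adjusted p = 0.0766, edgeR). These SON totals sum all transcript types, and its coding reads, given further below, were about level between the controls and gRNA2. In TPM, SON was at 113.4 ± 6.21 in the controls and 110.9 ± 8.991 with gRNA2 (SD, n = 3).

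HNRNPA2B1 and HNRNPA1, abundant silencer-binding proteins, fell by similar amounts. HNRNPA2B1 was at 561.4, 587.4 and 604.3 CPM in the controls, 577.9, 580.7 and 593.7 with gRNA1 and 503.2, 521.2 and 535.9 with gRNA2. HNRNPA1 was at 602.5, 602.8 and 635.1 CPM in the controls, 641.1, 623.6 and 627.8 with gRNA1 and 546.9, 561.1 and 558.1 with gRNA2. For both genes gRNA1 overlapped the controls and gRNA2 lay below both groups, at 0.89 times the control for HNRNPA2B1 (0.844 to 0.938, adjusted p = 0.00999) and 0.905 times for HNRNPA1 (0.864 to 0.949, adjusted p = 0.0131; both edgeR). For HNRNPA1, 25.22% of the 31-base words occur in transcripts of other genes, so its reads could be split with near copies.

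SRSF3, the smallest SR protein, read 113.2, 112.4 and 119.8 CPM in the controls, 118.3, 119.5 and 111.8 with gRNA1 and 96.39, 105.2 and 102.3 with gRNA2. HNRNPF, a paralogue of HNRNPH1 that also binds runs of G, read 308.9, 313.4 and 306.9 in the controls, 281.9, 285.0 and 311.9 with gRNA1 and 281.6, 278.9 and 271.9 with gRNA2. With gRNA2 both lay below all controls, at 0.879 times the control for SRSF3 (adjusted p = 0.0212) and 0.896 times for HNRNPF (adjusted p = 0.0243; both edgeR).

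HNRNPK, which binds C-rich RNA, had 521.2, 532.5 and 532.7 CPM in the controls, 522.4, 521.2 and 523.0 with gRNA1 and 475.4, 500.3 and 496.2 with gRNA2. HNRNPA3 had 284.0, 302.5 and 309.9 CPM in the controls, 306.3, 312.9 and 315.9 with gRNA1 and 266.5, 273.1 and 279.4 with gRNA2. Both were below all controls with gRNA2, at 0.928 and 0.913 times (adjusted p = 0.0443 and 0.0475, edgeR), the 2 values nearest the threshold. Of their 31-base words, 24.33% and 21.25% occur in transcripts of other genes, so their reads could be split with near copies.

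With an offset for each gene's mean effective transcript length in each library, 3 of the 46 genes passed instead of 8. The log2 change of SON went from -0.19 to -0.098 (adjusted p = 0.431, edgeR) and that of HNRNPK from -0.108 to -0.069 (0.354). HNRNPA2B1 (-0.169 to -0.211, adjusted p = 0.0501), HNRNPA1 (-0.144 to -0.174, 0.0856) and HNRNPA3 (-0.131 to -0.189, 0.0656) had larger changes under the offset and no longer passed. Over the 9 libraries left out in turn the count ran from 2 (without control replicate 3) to 10, with HNRNPL and SON past the threshold every time.

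The other calls each depended on single libraries, with the highest adjusted p over the 9 fits given here. SRSF3 was not past the threshold without control replicate 2 or 3 or gRNA2 replicate 1 (up to 0.11), HNRNPA2B1 without control replicate 2 or 3 or gRNA2 replicate 2 (0.0708), and HNRNPA1 without control replicate 3 or gRNA2 replicate 2 (0.0819). HNRNPF lost its call without any one control or gRNA2 replicate 2 or 3 (0.1), HNRNPK without any library but gRNA1 replicate 3 (0.17), and HNRNPA3 without any but control replicate 1 and gRNA1 replicate 3 (0.201; all edgeR).

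**Figure D2:**
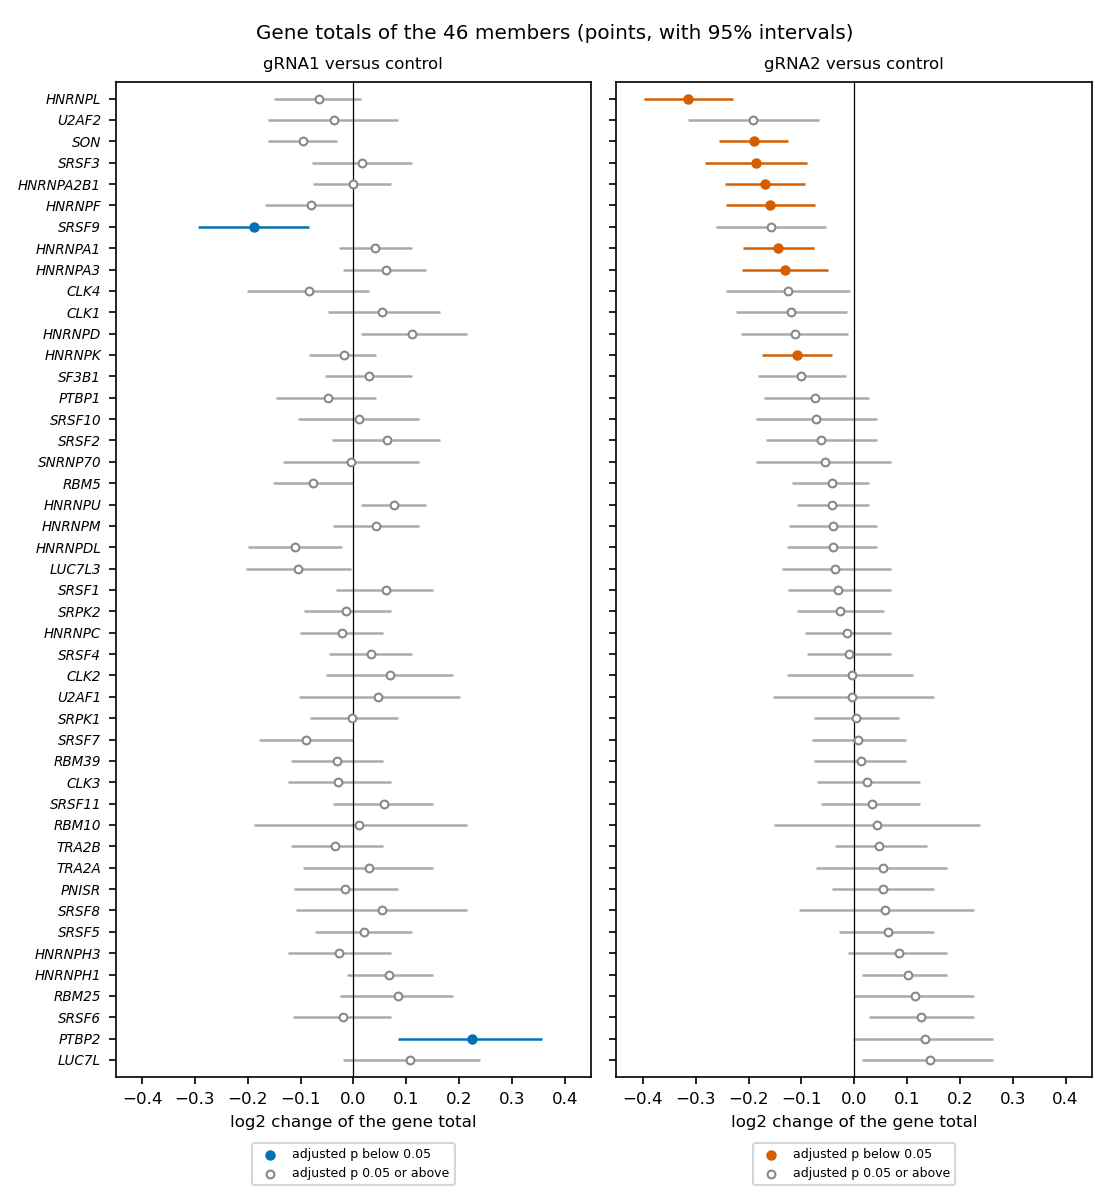
Points give the log2 change of the gene total with each guide against the control for the 46 genes, horizontal lines the 95% interval, and filled points those with an adjusted p below 0.05 (edgeR). With gRNA2 the 8 filled points are all left of 0, led by HNRNPL; with gRNA1 SRSF9 is filled on the left and PTBP2 on the right.

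Set against the control, 1 of the 46 totals rose and 1 fell with gRNA1, beside 3.5% of all genes higher and 3.59% lower (edgeR quasi-likelihood test). SRSF9, an SR protein of constitutive and alternative splicing, had 87.54, 81.17 and 84.43 CPM in the controls, 78.71, 73.82 and 69.38 with gRNA1 and 77.33, 74.18 and 75.31 with gRNA2. Both guides lay below every control. With gRNA1 it was at 0.877 times the control (0.816 to 0.944, adjusted p = 0.0324) and with gRNA2 at 0.897 times (0.834 to 0.964, adjusted p = 0.0634, edgeR), and 46.57% of its 31-base words occur in other genes.

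PTBP2, the paralogue of PTBP1 that is best known from neurons, had 25.58, 26.92 and 26.67 CPM in the controls, 31, 31.47 and 30.04 with gRNA1 and 27.43, 27.87 and 32.07 with gRNA2. The gRNA1 libraries stood above all controls, at 1.17 times (1.06 to 1.28, adjusted p = 0.0468, edgeR), and DESeq2 gave an adjusted p of 0.0828. The median log2 change of the 46 genes with gRNA1 was 0.004, and 3 were higher and 5 lower at an unadjusted p below 0.05, beside 10.4% and 11.7% of all genes. The libraries were apart upward in 5 and downward in 6, beside 13.5% and 14.6%. Leaving out control replicate 1 left none of the 46 past the threshold. SRSF9 was past it only without gRNA1 replicate 1 or gRNA2 replicate 1 or 3 (highest adjusted p 0.117, edgeR) and PTBP2 only without gRNA2 replicate 1 or 3 (0.161), and with the transcript length offset the log2 change of SRSF9 was -0.173 in place of -0.189, with an adjusted p of 0.141 (edgeR).

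The guides were also set against each other, a comparison that shares its libraries with the other two. Of the 46 totals, 8 were lower with gRNA2 than with gRNA1 and none higher, beside 3.12% of all genes lower and 3.13% higher. At an unadjusted p below 0.05, 14 were lower and 3 higher, beside 9.78% and 9.89% of all genes. DESeq2 called 11 lower and 0 higher, a count given without its share of all genes. Without the filter on low counts edgeR called 10 lower and 1 higher, where 1848 of all genes passed in either direction, against 1227 with the filter. In 16 of the 46 the gRNA2 libraries all lay below the gRNA1 libraries and in 4 above, beside 12% and 11.9%. The ratio of gRNA2 to gRNA1 was 0.842 for HNRNPL (adjusted p = 0.00175), 0.88 for HNRNPA1 (0.00317), 0.876 for HNRNPA3 (0.0078), 0.89 for HNRNPA2B1 (0.0119) and 0.869 for SRSF3 (0.0153; all edgeR).

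The other 3 passed in this comparison without passing against the control. HNRNPD, a binder of AU-rich elements, had 158.9, 170.2 and 178.8 CPM in the controls, 179.0, 181.4 and 188.1 with gRNA1 and 148.7, 160.1 and 161.3 with gRNA2. The gRNA1 values were the highest, and gRNA2 was at 0.857 times gRNA1 (0.799 to 0.919, adjusted p = 0.0116, edgeR). HNRNPU, a nuclear scaffold protein, had 530.4, 545.9 and 541.0 CPM in the controls, 569.5, 573.2 and 563.5 with gRNA1 and 509.9, 523.7 and 537.6 with gRNA2. It followed the same order, at 0.921 times gRNA1 (0.879 to 0.964, adjusted p = 0.0346, edgeR).

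CLK1 read 75.23, 81.41 and 78.09 CPM in the controls, 82.75, 81.51 and 79.86 with gRNA1 and 68.34, 71.17 and 77.29 with gRNA2, and gRNA2 lay below gRNA1 at 0.886 times (0.824 to 0.953, adjusted p = 0.0494, edgeR). This value was the closest to the threshold and passed only without gRNA2 replicate 3 (highest adjusted p over the 9 fits 0.198, edgeR). HNRNPU lost its call without control replicate 2 or 3, gRNA1 replicate 1 or 2 or gRNA2 replicate 1 or 2 (0.158), SRSF3 without gRNA1 replicate 1 or 2 (0.0855), and HNRNPA2B1 (0.0768) and HNRNPA3 (0.0544) without gRNA2 replicate 2.

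With the transcript length offset 2 of the 46 genes passed between the guides instead of 8. The log2 change stayed near its value or grew in HNRNPL (-0.248 to -0.216, adjusted p = 0.11, edgeR), HNRNPA1 (-0.184 to -0.171, 0.101), HNRNPA2B1 (-0.168 to -0.2, 0.06), HNRNPD (-0.223 to -0.289, 0.0532) and CLK1 (-0.175 to -0.16, 0.269), none of which passed. In HNRNPU it went from -0.119 to -0.085 (0.52). Leaving out gRNA2 replicate 2 left 4.

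The retained-intron share was tested in 35 of the 36 genes with such a transcript. HNRNPA3 had too few reads, since a gene entered with a mean of at least 10 reads on the type and 10 on its other transcripts. No gene passed the threshold in any comparison, whether among the 35 or among all 6065 tested (0 genes, 0.0%; edgeR quasi-likelihood test with Benjamini-Hochberg adjustment), and limma on the log2 ratios called 0 of the 35 as well. The estimates and the order of the libraries are given below as values that did not pass.

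With gRNA2 against the control, 13 of the 35 shares were higher and 1 lower at an unadjusted p below 0.05, beside 10.8% and 1.35% of all genes. The genes were not matched for read depth, and at a change of a given size a gene with more reads reaches a low p more easily. In 14 of the 35 all gRNA2 libraries lay above all controls, and in 1 below, where over all genes the shares were 16.8% and 2.87%. The median log2 change of the odds that a read was of the retained-intron type was 0.2 in the 35 genes and 0.136 in all genes, so the estimates of genes in general also lay above 0. Limma gave 7 higher at an unadjusted p below 0.05 in place of 13, and leaving out 1 library gave 5 to 11, with 5 without gRNA2 replicate 1. These alternative counts are given without the share of all genes in the same fits.

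**Figure D3:**
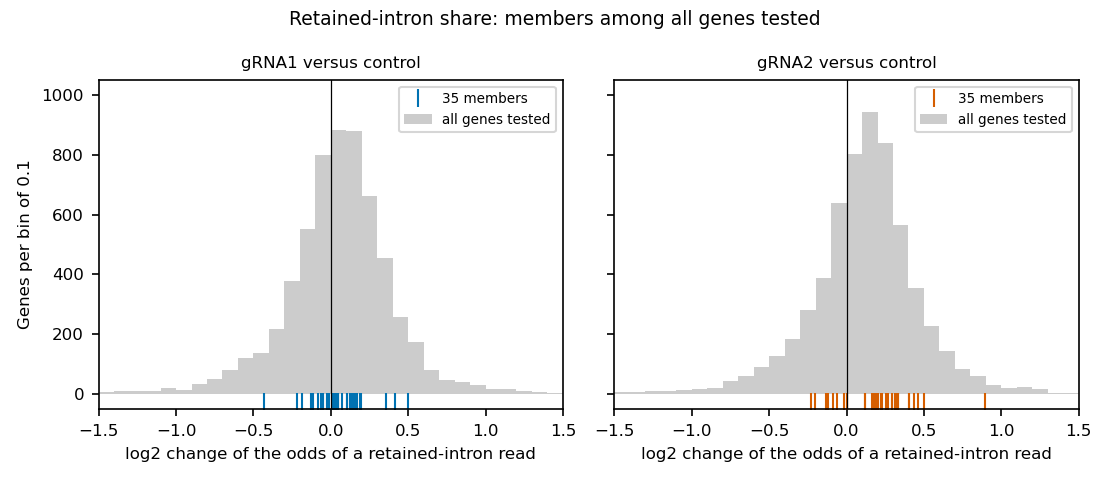
Grey bars count the 6065 tested genes by the log2 change of the odds of a retained-intron read against the control, in bins of 0.1, and the ticks under them mark the 35 splicing regulators. With gRNA2 both the bars and most ticks lie right of 0; a few genes beyond the plotted range are not drawn.

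Among the 13 were 6 hnRNP genes, with lower coding reads and retained-intron reads that were about level or higher. This partly follows from the choice of genes, since a higher retained-intron share of a lower total leaves fewer other reads. HNRNPA2B1 had a share of 29.6%, 30.3% and 30.4% in the controls, 29.7%, 29.7% and 30.5% with gRNA1 and 35.3%, 33.9% and 35.6% with gRNA2. The gRNA2 libraries stood above the 6 others, with an odds ratio of 1.25 against the control (95% interval 1.12 to 1.39, unadjusted p = 0.000992, adjusted p = 0.232, edgeR). Its reads on coding transcripts went from 368.7 ± 11.94 CPM in the controls to 299.6 ± 10.43 with gRNA2, and those on retained-intron transcripts from 176.0 ± 8.754 to 181.7 ± 7.79 (SD, n = 3).

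For HNRNPU the share was 37.0%, 34.4% and 36.6% in the controls, 38.2%, 40.0% and 38.0% with gRNA1 and 46.3%, 42.4% and 40.9% with gRNA2, in that order without overlap. The odds ratio of gRNA2 was 1.35 (1.16 to 1.57, adjusted p = 0.232, edgeR). Coding reads were 278.8 ± 14.99 CPM in the controls and 236.0 ± 20.71 with gRNA2, and retained-intron reads 194.1 ± 5.44 and 226.1 ± 8.716. HNRNPU-203, its leading retained-intron transcript, keeps no whole intron of a coding transcript, and 65.4% of its bases lie outside coding-transcript exons.

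HNRNPD had 15.3%, 17.0% and 16.2% in the controls, 15.9%, 17.8% and 14.3% with gRNA1 and 19.9%, 21.4% and 23.2% with gRNA2, all on its 1 retained-intron transcript. That transcript keeps 5 annotated introns of coding transcripts whole, some of which overlap as alternatives. The gRNA2 libraries were above the 6 others (odds ratio 1.42, 1.17 to 1.71, adjusted p = 0.232, edgeR), with coding reads of 117.5 ± 7.469 CPM in the controls and 97.55 ± 2.47 with gRNA2. HNRNPL had 19.7%, 21.0% and 20.9% in the controls, 20%, 19.8% and 25.8% with gRNA1 and 28.0%, 24.6% and 23.9% with gRNA2, where gRNA1 replicate 3 reached the range of gRNA2. In HNRNPL the coding reads went from 105.1 ± 2.711 to 79.2 ± 0.7428 CPM with gRNA2, while the retained-intron reads were 27.57 ± 0.5112 and 27.6 ± 3.66.

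HNRNPK had 13.2%, 12.8% and 13.5% in the controls, 12.4%, 12.4% and 12% with gRNA1 and 14.6%, 14.4% and 14.7% with gRNA2. The guides stood on opposite sides of the controls without overlap, with an odds ratio of 1.12 with gRNA2 (1.01 to 1.24, adjusted p = 0.377, edgeR). HNRNPA1 had 4.48%, 3.63% and 4.52% in the controls, 3.86% to 4.16% with gRNA1 and 4.85%, 4.76% and 4.99% with gRNA2, so that gRNA2 lay just above both groups. Coding reads went from 422.3 ± 5.609 to 383.0 ± 6.687 CPM in HNRNPK and from 516.6 ± 18.67 to 468.2 ± 6.357 in HNRNPA1, control to gRNA2, and retained-intron reads from 69.79 ± 2.002 to 71.43 ± 1.838 and from 25.87 ± 3.547 to 27.03 ± 0.7196.

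Among the SR proteins, SRSF4 was the one with a higher share under both guides at an unadjusted p below 0.05. It had 39.8%, 41.2% and 42.0% in the controls, 48.5%, 47.3% and 45.4% with gRNA1 and 46.9%, 48.7% and 48.0% with gRNA2. All 6 guide libraries lay above the 3 controls, which both comparisons share, with odds ratios of 1.28 (1.09 to 1.5, adjusted p = 0.496) for gRNA1 and 1.32 (1.13 to 1.55, adjusted p = 0.232, edgeR) for gRNA2. SRSF3 went the other way, with 57.0%, 53.5% and 56.0% in the controls, 51.8%, 52.7% and 52.4% with gRNA1 and 52.3%, 52.2% and 50.1% with gRNA2. Its retained-intron reads were 63.93 ± 3.495 CPM in the controls and 52.19 ± 2.434 with gRNA2, and its coding reads 45.46 ± 1.755 and 39.77 ± 2.777.

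Other genes in the 13 were the kinases CLK1 (odds ratio 1.23, 1.03 to 1.47) and SRPK2 (1.26, 1.03 to 1.54), RBM25 (1.17, 1.04 to 1.32), SF3B1 of the branch-point complex (1.2, 1.01 to 1.44), SRSF1 (1.86, 1.01 to 3.43) and SON. Of the 31-base words of SRSF1, 56.94% occur in transcripts of other genes, so its shares could be affected by split reads. For SON the share was 4.36%, 6.29% and 4.86% in the controls, 5.61%, 6.97% and 5.0% with gRNA1 and 7.18%, 6.52% and 7.14% with gRNA2, above all controls but overlapping gRNA1. In CLK1 the coding reads were 10.3 ± 1.174 CPM in the controls and 6.555 ± 1.09 with gRNA2, beside 55.87 ± 3.202 and 54.49 ± 3.942 on retained-intron transcripts. The 3 genes with the highest shares of all were not among the 13. Their odds ratios with gRNA2 were 1.14 for TRA2B (0.921 to 1.41), 0.941 for HNRNPH1 (0.78 to 1.14) and 1.08 for RBM39 (0.944 to 1.24).

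**Figure D4:**
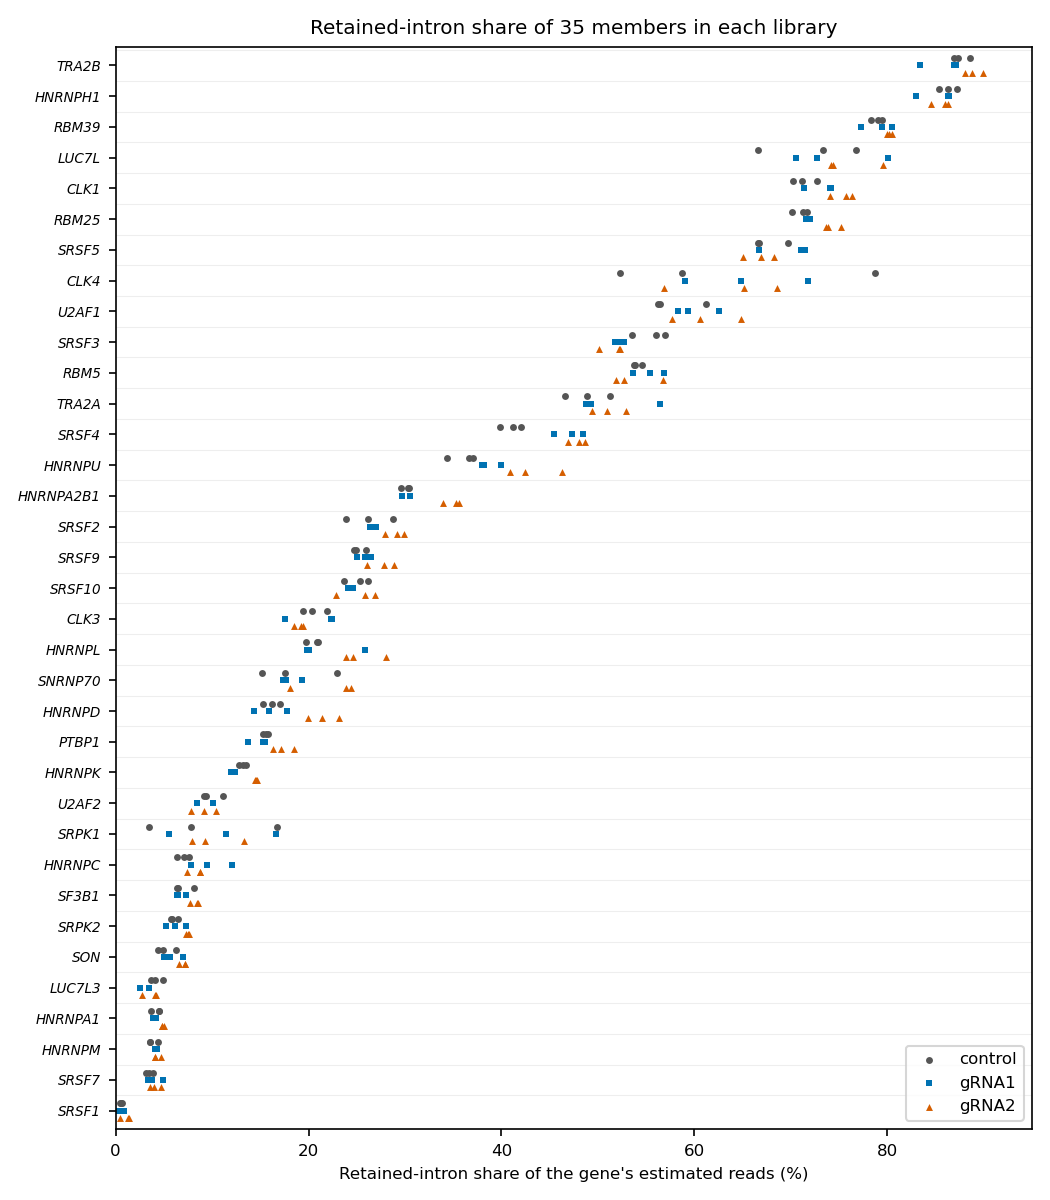
Each symbol is 1 library: the percentage of a gene's estimated reads on retained-intron transcripts, for the 35 tested genes ordered by the control mean, with control (circles), gRNA1 (squares) and gRNA2 (triangles). The gRNA2 triangles lie right of the other symbols in HNRNPA2B1, HNRNPU and HNRNPD, while CLK4 and SRPK1 spread widely within groups.

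With gRNA1 against the control, 2 of the 35 shares (SRSF4 and HNRNPC) were higher and 0 lower at an unadjusted p below 0.05, beside 5.61% and 2.26% of all genes. The libraries were apart upward in 3 and downward in 3, against 10.3% and 3.96% of all genes. The median log2 odds change was 0.046 in the regulators and 0.063 over all genes. HNRNPC, which binds runs of U, had 7.06%, 7.64% and 6.4% in the controls and 9.52%, 7.77% and 12.1% with gRNA1, and, as given above, the leading one of its retained-intron transcripts has no 31-base word of its own.

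Between the guides, 9 of the 35 shares were higher with gRNA2 and 0 lower at an unadjusted p below 0.05, beside 6.56% and 1.86% of all genes. The 9 were HNRNPA1, HNRNPA2B1, HNRNPD, HNRNPK, HNRNPU, PTBP1, RBM25, SF3B1 and TRA2B. In 11 of the 35 the gRNA2 libraries lay above all gRNA1 libraries and in none below, against 11.3% and 4.14% of all genes. Limma gave 5 in place of 9, and without gRNA1 replicate 1 the count was also 5, both without the share of all genes in the same fit.

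Summed over the 46 genes, the retained-intron share was 24.18%, 24.04% and 23.94% in the controls, 24.74%, 24.85% and 24.49% with gRNA1 and 26.41%, 26.19% and 26.71% with gRNA2. The groups stood in that order without overlap. Over all other genes the share was 6.039% ± 0.02449, 6.209% ± 0.01229 and 6.437% ± 0.04558 in the same order (SD, n = 3), also without overlap, so other genes followed the same order. The protein-coding share of the 46 genes was 63.77% ± 0.06036, 63.65% ± 0.1 and 61.15% ± 0.3772. Over all other genes it was 74.44% ± 0.2455, 74.09% ± 0.1957 and 73.14% ± 0.1497, also with every gRNA2 library below all the others. As a share of TPM, which divides by transcript length, the retained-intron part was 29.07% ± 0.4114, 29.2% ± 0.1797 and 30.75% ± 0.2203, with control and gRNA1 overlapping. No p-value is given for these sums, because the genes were chosen with earlier results known, and the part of the shift common to all genes in that of the regulators was not tested.

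**Figure D5:**
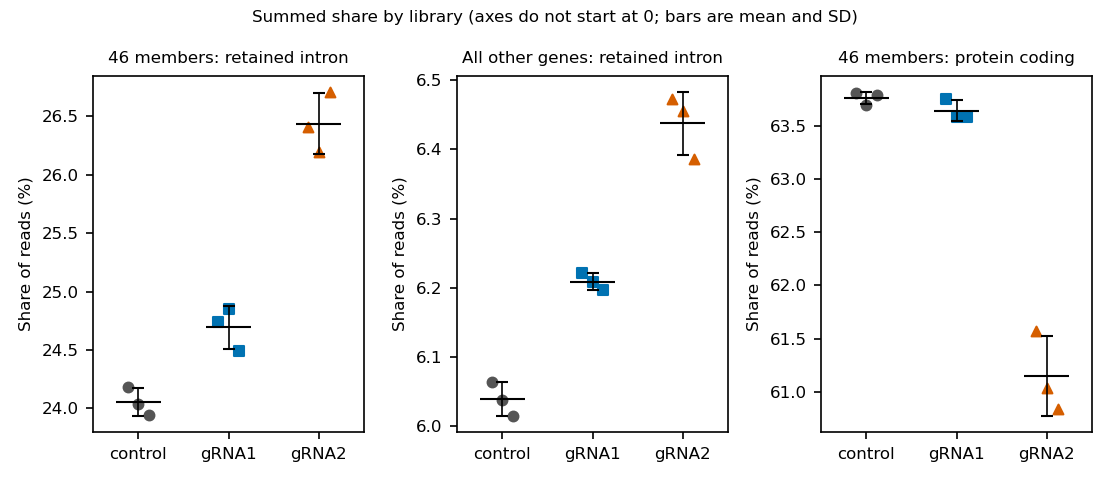
Each symbol is 1 library, with the mean and SD of the 3 libraries of a group as bars, for the share of reads on retained-intron transcripts in the 46 genes (left) and in all other genes (middle) and on protein-coding transcripts in the 46 genes (right); the vertical axes do not start at 0. The gRNA2 libraries lie highest on the left and in the middle and lowest on the right.

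Transcripts of the nonsense-mediated-decay type are listed for 40 of the 46 genes, and 36 had enough reads to be tested. None passed in any comparison, among the 36 or the 3482 genes tested (0 genes, 0.0%; edgeR quasi-likelihood test), and limma called 0 of the 36. With gRNA2 against the control, 2 of the 36 were higher and 0 lower at an unadjusted p below 0.05, beside 3.36% and 1.46% of all genes. With gRNA1 0 were higher and 2 lower (SRSF1 and PTBP1), beside 2.61% and 2.07%, and between the guides 5 were higher with gRNA2 (SRSF1, SRSF3, SRSF5, HNRNPD and U2AF2) and 0 lower, beside 2.87% and 1.75%.

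SRSF3 had 3.61%, 7.08% and 4.42% of its reads on the type in the controls, 5.69%, 5.6% and 6.93% with gRNA1 and 9.36%, 9.95% and 8.27% with gRNA2. The gRNA2 libraries lay above the 6 others (odds ratio 1.98 against the control, 1.27 to 3.09, adjusted p = 0.937, edgeR), in a gene whose retained-intron share lay lower. SRSF7 had 61.3%, 68.8% and 67.0% in the controls, 66.1%, 68.1% and 65.1% with gRNA1 and 73.8%, 69.2% and 74.4% with gRNA2, all above both groups (odds ratio 1.37 against the control, 1.02 to 1.85, adjusted p = 0.95, edgeR). SRSF1 had 34.0%, 29.5% and 29.5% in the controls, 20.4%, 24.2% and 24.1% with gRNA1 and 29%, 30.2% and 26.8% with gRNA2, where gRNA1 lay below every other library (odds ratio 0.66 against the control, 0.497 to 0.876, adjusted p = 0.861, edgeR).

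SON had 19.7%, 15.0% and 22.9% in the controls, 7.39%, 10.9% and 9.42% with gRNA1 and 0.794%, 8.25% and 10.9% with gRNA2. Every guide library lay below every control, and gRNA2 replicate 1 was far below the rest. The odds ratio of gRNA2 against the control was 0.213, with an interval from 0.0452 to 1.01 (adjusted p = 0.95, edgeR), and the coding reads of SON were 262.9 ± 14.6 CPM in the controls and 264.6 ± 13.66 with gRNA2. Summed over the 46 genes, SON included, the share was 7.787% ± 0.1161 for the control, 7.199% ± 0.2321 for gRNA1 and 7.443% ± 0.2296 for gRNA2 (SD, n = 3). Over all other genes it was 2.718% ± 0.01325, 2.738% ± 0.04649 and 2.777% ± 0.01961 in the same order. The lower share of SON is part of the sum over the 46 genes, which was not recomputed without SON.

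Other parts of the splicing machinery were read from lists of core spliceosome genes, further splicing regulators, nonsense-mediated decay factors and exon junction complex genes. Of 69 core spliceosome genes tested, 14 fell and 0 rose with gRNA2 against the control, beside 4.77% and 3.73% of all genes (33 and 2 at an unadjusted p below 0.05, beside 12.2% and 11.1%, edgeR), with a median log2 change of -0.113. The Sm protein genes SNRPD2 (0.855 times the control, adjusted p = 0.00493) and SNRPD3 (0.832 times, adjusted p = 0.00946, edgeR) and the tri-snRNP gene SART1 (0.849 times) were examples. With gRNA1 1 rose (PRPF3) and 2 fell (PRPF4 and USP39), below the 3.5% and 3.59% of all genes. Between the guides 9 were lower with gRNA2 and 0 higher, beside 3.12% and 3.13%. For the retained-intron share with gRNA2 against the control, the median log2 odds change was 0.155 in 38 core genes. It was 0.16 in the further regulators, beside 0.2 in the 35 genes above and 0.136 in all genes. At an unadjusted p below 0.05, 3 of 38 and 11 of 46 were higher and 0 lower, beside 10.8% and 1.35% of all genes. The median was -0.042 in 10 decay factors and 0.092 in 7 exon junction genes.

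Of 72 further splicing regulators, 9 fell and 0 rose with gRNA2, beside 4.77% and 3.73% of all genes (18 and 5 at an unadjusted p below 0.05, beside 12.2% and 11.1%), among them the poly(C)-binding gene PCBP1 (0.875 times the control, adjusted p = 0.0113, edgeR). With gRNA1 3 rose and 1 fell, beside 3.5% and 3.59% of all genes, and between the guides 3 were higher with gRNA2 and 7 lower, beside 3.13% and 3.12%. MBNL2, a regulator of tissue-specific splicing, was higher there, at 1.17 times (adjusted p = 0.00346, edgeR). RBM3, a cold-induced RNA-binding protein, was at 1.14 times the control with gRNA1 (adjusted p = 0.00533) and at 0.811 times between the guides (adjusted p = 0.000157, edgeR). Of the 13 decay factors, the kinase gene SMG1, which phosphorylates UPF1, rose with both guides, to 1.1 times (adjusted p = 0.0251) and 1.18 times the control (adjusted p = 0.00104, edgeR). SMG1 has annotated pseudogene copies, so its reads could be split with them. SMG8, its regulatory partner, fell with gRNA2 to 0.848 times. Of the 9 exon junction genes, RBM8A rose with gRNA1 to 1.17 times and EIF4A3 fell with gRNA2 to 0.894 times (adjusted p = 0.0187 and 0.0252, edgeR). Between the guides RBM8A was lower with gRNA2, at 0.85 times gRNA1 (adjusted p = 0.0141, edgeR). The few calls in the decay and exon junction lists stand beside 3.5% of all genes higher and 3.59% lower with gRNA1. With gRNA2 the shares of all genes were 3.73% and 4.77%, and between the guides 3.13% and 3.12%.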

How the data were processed

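The authors quantified total RNA libraries with Salmon 1.4.0 on hg38, per the submitters' processing notes; other settings are not given in the sources used here. The deposited tables hold estimated counts per transcript and TPM, per the file headers. Of 211939 transcripts, 95.7% matched GENCODE 29 by identifier, and 1.272% to 1.332% of the reads per library lay on unmatched ones. One U2AF1 retained-intron transcript is not listed.

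Estimated counts were summed per gene, rounded to whole numbers and tested with edgeR 4.0.16 (quasi-likelihood, TMM scaling, its default filter on low counts, all 9 libraries in 1 model, 2-sided, threshold 0.05 after Benjamini-Hochberg adjustment); the biological coefficient of variation was 0.051. CPM values are counts scaled by the TMM-adjusted library size. For the shares, each library gave a pair of counts per gene (reads on the type and all others), with a term per library and a type term per group. Alternatives used limma 3.58.1 (pseudocount 0.5) and DESeq2 1.42.0, and the code was tested on simulated data. Intervals are 95%. Libraries of a group differed beyond sampling noise, with a mean chi-square per gene of 1.784 to 7.626.

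The genes and lists were chosen with earlier results of these data known. Named with values in every library were the 8 genes with the highest control retained-intron share (mean of at least 100 such reads), every gene past the threshold, and the 3 with the lowest share; other genes are named where a count or an estimate rests on them, chosen after their values were seen. From each further list up to 3 called genes are named.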

Additional observations from a re-analysis of the deposited data

How the results depend on the processing

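The 18 gene totals past the threshold kept their direction under every alternative, and 80 of their 270 alternative values no longer passed. The 25 estimates of retained-intron share with an unadjusted p below 0.05 kept their direction, and none came to pass. The transcript length offset left 1, 3 and 2 of the 46 totals past the threshold for gRNA1 against control, gRNA2 against control and gRNA2 against gRNA1, and 538, 434 and 446 of all genes, against 1392, 1668 and 1227. Without the filter on low counts 2132 (gRNA1 against control) and 1848 (between the guides) of all genes passed. Leaving out 1 library gave 0 to 2, 2 to 10 and 4 to 9 regulators and 654 to 1712, 671 to 1831 and 575 to 1229 of all genes. HNRNPK and CLK1 each lost the call in 8 of 9 such fits, HNRNPA3 (gRNA2 against control) and PTBP2 in 7, SRSF9 and HNRNPU in 6, and HNRNPF in 5.

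For the retained-intron share, a fit of only the 2 groups compared called 1 gene of all (gRNA2 against control), and leaving out 1 library 0 to 1 in each comparison. Limma gave 7 and 5 regulators at an unadjusted p below 0.05 for gRNA2 against control and against gRNA1. Leaving out 1 library gave 1 to 3, 5 to 11 and 5 to 9 regulators at that p. These counts of regulators are given without the share of all genes in the same fits. For the nonsense-mediated-decay share, limma called 4, 4 and 1 of all genes, a minimum of 50 reads gave 2 with gRNA2, and leaving out 1 library gave 0 to 2, 0 to 2 and 0.

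The summed retained-intron share (control, gRNA1, gRNA2) was 29.07%, 29.2% and 30.75% of TPM, 27.39%, 27.95% and 30.18% with protein-coding reads as the rest, and 21.55%, 22.15% and 23.77% without HNRNPH1; leaving out 1 library gave 23.99% to 24.11%, 24.61% to 24.8% and 26.3% to 26.56%. The summed nonsense-mediated-decay share was 10.05%, 10.05% and 10.47% of TPM, 10.88%, 10.16% and 10.85% with protein-coding reads as the rest, and 7.501%, 6.836% and 7.202% without HNRNPA1; leaving out 1 library gave 7.75% to 7.854%, 7.069% to 7.292% and 7.325% to 7.554%. The causes of these shifts were not tested.

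Deviations from the group mean correlated at -0.161 to 0.207 between same-numbered libraries, within the -0.254 to 0.236 of libraries with different numbers. The numbers were therefore not used to pair the samples, though this check cannot exclude a shared batch. With a replicate block 1, 9 and 8 regulators passed in the 3 comparisons of totals, against 2, 8 and 8. Between the guides these were 7 lower and 1 higher, in place of 8 lower and 0 higher. The share of SRSF1 rests on 34.7 retained-intron reads per library, which limits its precision; CLK4, with a control SD of 13.8 percentage points, varied widely on 557.3.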
